A study of Mus musculus with 8 samples.

Results

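Transcripts of 10 genes that mark vascular endothelial cells were examined in whole lenses of mouse embryos at embryonic day 15.5 (E15.5). The genes were Cdh5, Flt1, Kdr, Plvap, Sox17, Emcn, Esam, Pecam1, Tek and Tie1. They were read by all probe sets that the platform annotation assigns to 1 of these genes alone, which gave 14 of the 22626 probe sets compared. Flt1 had 3 probe sets, Cdh5 and Sox17 had 2 each, and the other 7 genes had 1. Lens samples from dnBrg1 transgenic embryos (4 samples) were compared with those from wild type embryos (4 samples). The dnBrg1 transgene encodes a point mutant of Brg1, the motor of the SWI/SNF chromatin remodeling complex, which acts in a dominant-negative manner, and is driven by the αA-crystallin promoter in lens fiber cells. All embryos were of a mixed strain background, the transgenic mice were heterozygous and came from 1 founder line, and wild type littermates are named as the controls. This promoter is one of lens cells and not of vessels. The sample descriptions name polysome-bound RNA for dnBrg1 replicates 1 and 2 and for all wild type samples, and total RNA for dnBrg1 replicates 3 and 4, whereas the molecule field reads total RNA throughout. One Affymetrix mouse expression array was used per sample, so precision rests on 4 arrays a group. Values are log2 intensities, and log2 fold changes give dnBrg1 relative to wild type. The figure after ± is the standard error where SD is not stated, and the adjusted p-values of limma carry a Benjamini-Hochberg correction across all 22626 probe sets.

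The lens itself has no blood vessels. In the embryo it is wrapped by the tunica vasculosa lentis, a capillary net fed by the hyaloid artery, which regresses before the eye is mature. Its endothelial cells respond to VEGF ligands through the receptors Flt1 and Kdr and to angiopoietins through the receptor Tek, whose relative Tie1 acts with it. They hold together through the junction proteins Cdh5, Esam and Pecam1. Plvap forms the diaphragms of endothelial pores and caveolae, Emcn is a sialomucin of the endothelial surface, and Sox17 is a transcription factor of arterial endothelium. Dissected lenses can carry part of this net.

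Promoters of 5 of the 10 genes (Emcn, Flt1, Kdr, Tek and Tie1) were found in the RefSeq table of build GRCm38.p6, as windows of 300 bases from 250 bases before to 50 after the gene start. The 4 shown are those of genes whose transcripts were called different between the genotypes. Flt1 and Kdr, both VEGF receptor genes, went in opposite directions with their brightest probe sets, and Emcn and Tie1 rose. Capitals mark every match, on either strand, to 4 motifs: AGGAAG, which ETS factors read, ACAAT, which SOX factors read, the cyclic AMP response element TGACGTCA, and the GC box GGGCGG. No matches overlapped.
Flt1: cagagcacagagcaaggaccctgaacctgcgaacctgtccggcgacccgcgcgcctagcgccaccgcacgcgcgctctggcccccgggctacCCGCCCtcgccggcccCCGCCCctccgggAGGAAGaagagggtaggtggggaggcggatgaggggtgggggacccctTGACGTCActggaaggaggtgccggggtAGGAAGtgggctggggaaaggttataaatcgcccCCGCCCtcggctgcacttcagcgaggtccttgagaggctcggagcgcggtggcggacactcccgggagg
Kdr: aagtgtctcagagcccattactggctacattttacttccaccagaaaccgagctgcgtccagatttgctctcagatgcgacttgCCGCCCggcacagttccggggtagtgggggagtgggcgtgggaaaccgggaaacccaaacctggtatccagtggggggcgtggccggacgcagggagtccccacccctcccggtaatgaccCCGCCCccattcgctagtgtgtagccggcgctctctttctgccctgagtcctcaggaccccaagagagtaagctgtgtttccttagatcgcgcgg
Emcn: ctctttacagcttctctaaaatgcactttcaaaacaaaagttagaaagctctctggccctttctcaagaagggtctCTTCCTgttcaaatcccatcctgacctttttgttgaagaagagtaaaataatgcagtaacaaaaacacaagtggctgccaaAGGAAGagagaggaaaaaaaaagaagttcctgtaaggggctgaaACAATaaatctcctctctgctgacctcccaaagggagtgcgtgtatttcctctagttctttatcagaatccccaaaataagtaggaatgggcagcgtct
Tie1: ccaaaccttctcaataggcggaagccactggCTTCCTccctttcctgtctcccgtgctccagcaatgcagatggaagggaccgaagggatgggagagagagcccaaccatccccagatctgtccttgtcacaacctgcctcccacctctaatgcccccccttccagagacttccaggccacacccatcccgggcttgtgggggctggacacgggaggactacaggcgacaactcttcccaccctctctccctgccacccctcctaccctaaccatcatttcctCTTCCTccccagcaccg
These windows lie at chr5:147725962-147726261 (- strand) for Flt1, chr5:75978406-75978705 (- strand) for Kdr, chr3:137340828-137341127 (+ strand) for Emcn and chr4:118489800-118490099 (- strand) for Tie1. Flt1, Emcn and Tie1 each held 2 matches to AGGAAG and Kdr held 0, while 35.4% of all 32851 promoter windows had at least 1. Flt1 held 1 match to TGACGTCA, which 1.79% of the windows contain. Flt1 had 3 and Kdr 2 matches to GGGCGG (35.7% of windows), and Emcn had 1 match to ACAAT (31.0% of windows). The GC content was 70.7% for Flt1, 60.7% for Kdr, 60.3% for Tie1 and 41.0% for Emcn, against a median of 52.7% over all windows. A match is a description of the letters and not a binding site.

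Endothelial transcripts moved in both directions in dnBrg1 lenses. With the brightest probe set of each gene, Emcn, Esam, Tie1 and Kdr were upregulated, Plvap, Sox17, Cdh5 and Flt1 were downregulated, and Pecam1 and Tek did not pass the test. Plvap had the decrease of largest size among the 10 genes (4.36-fold) and Emcn the increase of largest size (3.09-fold). Over all 14 probe sets, 5 were called higher and 5 lower at an adjusted p under 0.05. Of all probe sets on the array, 40.8% were called, 19.8% higher and 21.0% lower, and among those at or above the median intensity of all, where 8 of the 14 lay, 53.5% were called. Calls were thus common on this array. The dnBrg1 and wild type samples did not overlap for the same 10 probe sets, against 40.1% of all probe sets. The median log2 fold change of the 14 was -0.09 and that of all probe sets was -0.08. With the brightest probe set of each gene, the median was 0.15 for the 10 genes and -0.11 for all genes. The median size of the change, without its sign, was 0.79 for the 14 and 0.34 for all. In whole lenses a change in the number of endothelial cells and a change in RNA per cell cannot be told apart.

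**Figure D1:**
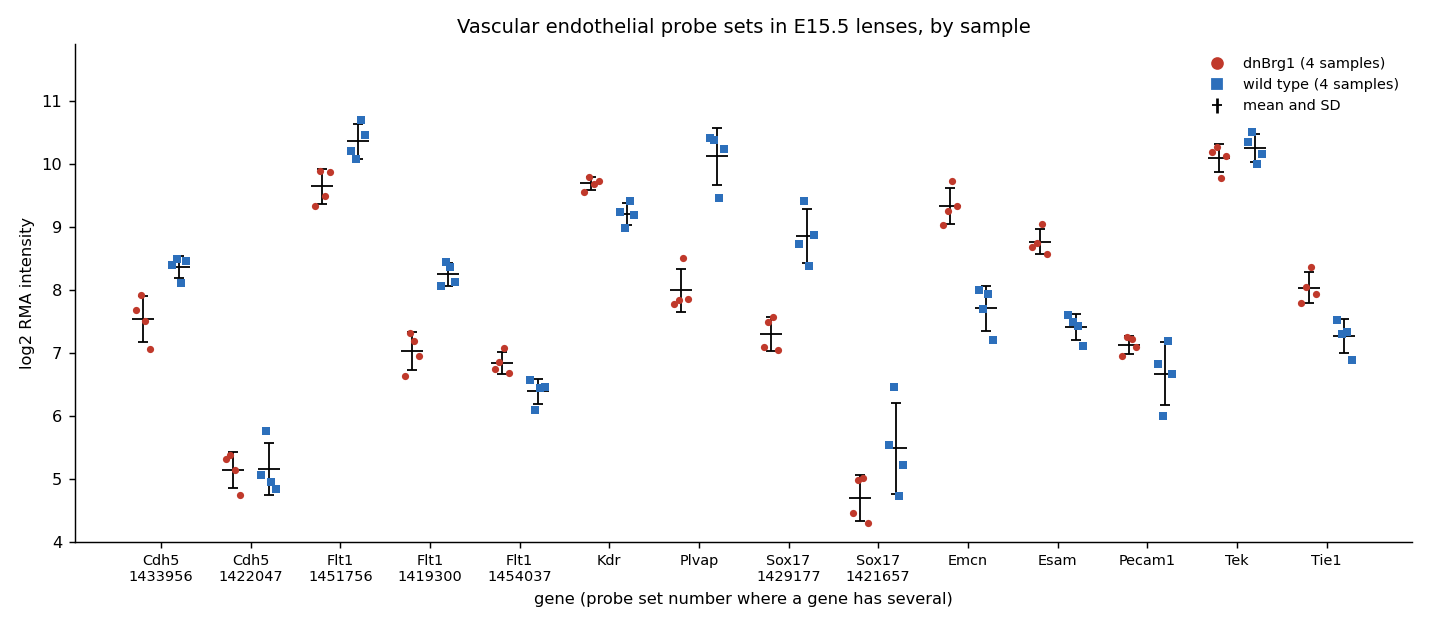
Log2 RMA intensity (vertical axis) of the 14 vascular endothelial probe sets (horizontal axis) in each dnBrg1 (red circles, left) and wild type (blue squares, right) lens sample, with replicates 1 to 4 from left to right; bars mark mean and SD of the 4 values. For Plvap all dnBrg1 samples lie at or below 8.50 and all wild type samples at or above 9.45, and for Emcn the order is the opposite.

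The VEGF receptor genes Flt1 and Kdr went in opposite directions with their brightest probe sets, and Flt1 also differed between its probe sets. Flt1 encodes VEGF receptor 1, which binds VEGF strongly, signals weakly and is also made in a soluble form. With its brightest probe set (1451756_at), Flt1 was at 9.33, 9.89, 9.49 and 9.87 in dnBrg1 lenses, against 10.20, 10.07, 10.69 and 10.46 in wild type lenses. All dnBrg1 values lay below all wild type values, and the log2 fold change was -0.71 ± 0.18 (adjusted p = 0.011). The second Flt1 probe set (1419300_at) also fell, with 6.63, 7.31, 7.19 and 6.95 in dnBrg1 lenses against 8.06, 8.44, 8.36 and 8.12 in wild type lenses. Its change was larger, -1.22 ± 0.16 (adjusted p = 0.00037), and the groups were again apart. The third (1454037_a_at) went the other way, with 6.74, 6.84, 7.07 and 6.68 in dnBrg1 and 6.56, 6.09, 6.44 and 6.45 in wild type lenses. It was called higher (0.45 ± 0.14, adjusted p = 0.025), but the call was lost without wild type replicate 2 (0.35, adjusted p = 0.051), without dnBrg1 replicate 2 (0.44, adjusted p = 0.056) and without dnBrg1 replicate 3 (0.37, adjusted p = 0.069). Over the alternatives the adjusted p of this probe set was 0.023 to 0.96. The Flt1 form read by each probe set was not given in the files used here.

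Kdr encodes VEGF receptor 2, the main signaling receptor for VEGF in endothelium. Its single probe set was at 9.55, 9.79, 9.67 and 9.73 in dnBrg1 lenses, against 9.23, 8.99, 9.40 and 9.19 in wild type lenses. Each dnBrg1 sample lay above each wild type sample, with the highest wild type value, that of replicate 3, 0.15 below the lowest dnBrg1 value. The log2 fold change was 0.48 ± 0.11 (adjusted p = 0.0081), the smallest among the called genes on their brightest probe sets.

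Of the TIE receptor genes, Tie1 rose and Tek did not pass the test, and whether their changes differ was not tested. Tie1, an orphan receptor that modulates Tek signaling, was at 7.80, 8.03, 8.36 and 7.93 in dnBrg1 lenses, against 7.52, 7.30, 7.33 and 6.88 in wild type lenses. The groups did not overlap and Tie1 rose 1.71-fold (log2 fold change 0.77 ± 0.17, adjusted p = 0.0051). Tek, the angiopoietin receptor, was at 10.19, 10.27, 9.77 and 10.13 in dnBrg1 lenses, against 10.35, 10.51, 9.99 and 10.16 in wild type lenses. These values overlapped, and the difference of -0.16 ± 0.15 did not pass (adjusted p = 0.42), with a 95% interval of -0.50 to 0.18.

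Genes for junction proteins moved in opposite directions. Cdh5, which encodes VE-cadherin, the adhesion molecule of endothelial adherens junctions, was at 7.67, 7.92, 7.51 and 7.05 in dnBrg1 lenses with its brighter probe set (1433956_at), against 8.38, 8.48, 8.11 and 8.46 in wild type lenses. All dnBrg1 samples were below all wild type samples, and Cdh5 fell by 0.82 ± 0.18 on the log2 scale (adjusted p = 0.0058). The dimmer Cdh5 probe set (1422047_at) averaged 5.14 ± 0.28 in dnBrg1 and 5.15 ± 0.42 in wild type lenses (SD, n = 4 each), with overlapping samples and a log2 fold change of -0.01 (95% interval -0.50 to 0.48). Its mean lay below the median of all probe sets. Esam, an immunoglobulin-type adhesion molecule of endothelial tight junctions and platelets, was at 8.68, 8.75, 9.04 and 8.57 in dnBrg1 lenses, against 7.60, 7.49, 7.42 and 7.11 in wild type lenses. The lowest dnBrg1 sample exceeded the highest wild type sample by 0.96, and Esam rose 2.55-fold (1.35 ± 0.14, adjusted p = 0.00011). Pecam1, the adhesion molecule CD31 of endothelial cells, platelets and leukocytes, was at 6.95, 7.26, 7.22 and 7.09 in dnBrg1 lenses, against 6.82, 6.0, 7.19 and 6.66 in wild type lenses. The wild type values of Pecam1 were spread widely, with replicate 2 lowest and replicate 3 inside the dnBrg1 range. The difference of 0.46 ± 0.22 did not pass (adjusted p = 0.13, 95% interval -0.04 to 0.96). It passed without wild type replicate 3 (0.64, adjusted p = 0.028; over the alternatives 0.028 to 0.35).

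Plvap and Emcn had the changes of largest size among the 10 genes on their brightest probe sets, in opposite directions. Plvap was at 7.77, 7.84, 8.50 and 7.85 in dnBrg1 lenses, against 10.41, 10.37, 9.45 and 10.23 in wild type lenses. Replicate 3 stood apart in both genotypes, as the highest dnBrg1 and the lowest wild type sample, and a gap of 0.95 remained between them. The log2 fold change of Plvap was -2.13 ± 0.24 (adjusted p = 0.00015). Emcn was at 9.03, 9.25, 9.72 and 9.33 in dnBrg1 lenses, against 7.99, 7.69, 7.93 and 7.21 in wild type lenses. The groups were 1.04 apart, and the log2 fold change was 1.63 ± 0.20 (adjusted p = 0.00024).

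Sox17 was the transcription factor gene among the 10. With its brighter probe set (1429177_x_at) it was at 7.08, 7.49, 7.57 and 7.05 in dnBrg1 lenses, against 8.73, 9.41, 8.37 and 8.87 in wild type lenses. The groups did not overlap, and Sox17 fell 2.92-fold (-1.55 ± 0.22, adjusted p = 0.0005). The suffix of this probe set marks probes that may also bind other transcripts. The dimmer probe set (1421657_a_at) averaged 4.69 ± 0.36 in dnBrg1 and 5.48 ± 0.72 in wild type lenses (SD, n = 4 each), with overlapping samples. Its value of -0.80 ± 0.34 did not pass (adjusted p = 0.086). It was called lower without wild type replicate 3 (-1.05, adjusted p = 0.023; over the alternatives 0.023 to 0.31).

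The dnBrg1 samples with the same RNA description as the wild type were also compared alone. With only dnBrg1 replicates 1 and 2 against all wild type samples, Plvap (-2.31), Emcn (1.43), Esam (1.31), the brighter Sox17 probe set (-1.56), the brighter Cdh5 probe set (-0.56) and the second Flt1 probe set (-1.27) were called. With only dnBrg1 replicates 3 and 4, described as total RNA, the same 6 were called, at -1.94, 1.82, 1.40, -1.54, -1.08 and -1.17 in that order, and Tie1 was too (0.89). Tie1 was at 0.66 with replicates 1 and 2 (adjusted p = 0.051; over the alternatives 0.0051 to 0.46). Kdr (0.47 and 0.50) and the brightest Flt1 probe set (-0.74 and -0.68) kept their size in both comparisons and passed in neither, where each rests on 2 dnBrg1 samples.

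Array controls for the 3' and 5' parts of a transcript moved with the genotype. For Gapdh the 3' minus 5' difference was 0.67 ± 0.02 in dnBrg1 and 1.59 ± 0.58 in wild type lenses (log2, SD, n = 4 each; two-sided exact permutation p = 0.029, adjusted over both controls p = 0.029). For β-actin it was 0.58 ± 0.06 in dnBrg1 and 2.50 ± 0.48 in wild type lenses (SD, n = 4 each; exact permutation p = 0.029, adjusted p = 0.029), and no smaller p can come from the 70 ways to assign the samples. With the mean of both as a covariate none of the 14 endothelial probe sets passed, and 6.37% of all probe sets did (3.57% higher and 2.8% lower; 6.33% of genes by their brightest probe sets). In that fit 6 of the 14 passed at an unadjusted p under 0.05, and in the methods' t-test without the covariate all 10 calls were made. All 10 called probe sets kept their sign, while the median standard error of the 14 was 0.40 with the covariate and 0.18 without it. Esam (1.29 with the covariate), the second Flt1 probe set (-1.13) and Emcn (1.12) stayed within 1.5 times of their values, and the brightest Flt1 probe set was larger (-1.32). Plvap (-1.21), Tie1 (0.55, within 1.5 times), Sox17 (-0.40) and Cdh5 (-0.35) were smaller, and Kdr (0.02) and the third Flt1 probe set (0.04) were near 0. Among the probe sets without a call, Pecam1 (-0.87), Tek (0.38), the dimmer Sox17 (0.99) and the dimmer Cdh5 (0.84) changed sign. The covariate nearly follows the genotype, so both cannot be told apart. The covariate also varied within wild type, at 1.90, 2.66, 1.43 and 2.20 in replicates 1 to 4, against 0.59 to 0.65 in dnBrg1. Across the wild type samples the brighter Sox17 and Cdh5 probe sets ranked in the same order as the covariate. Kdr and Pecam1 ranked in the reverse order, and the other endothelial probe sets in neither. Whether these values depend on the control difference was not tested.

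**Figure D2:**
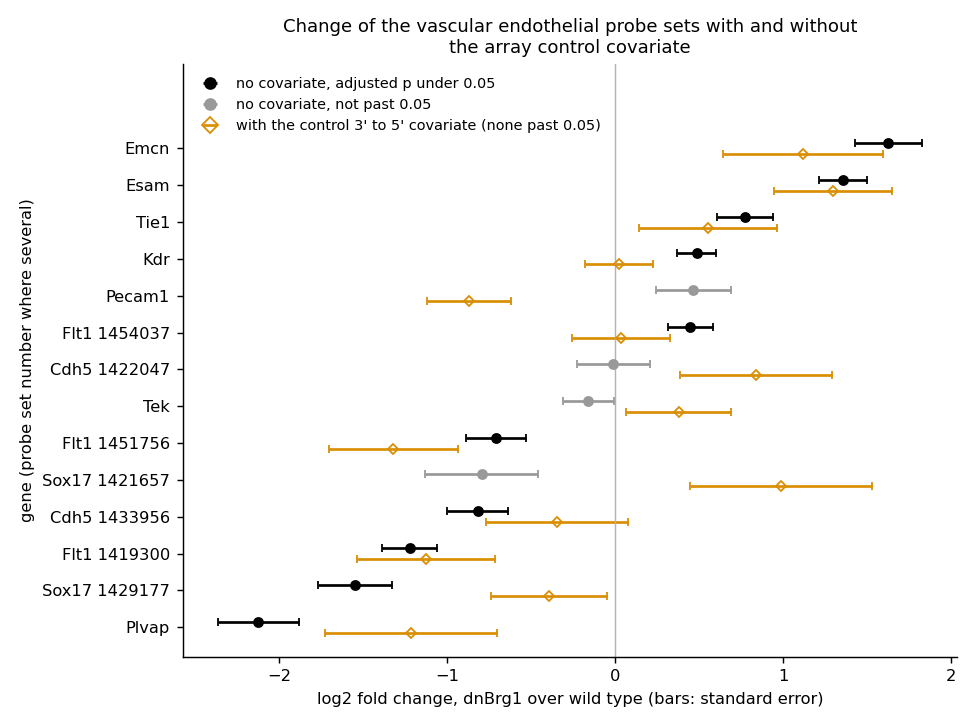
Log2 fold change of each vascular endothelial probe set, dnBrg1 over wild type (horizontal axis), by gene (vertical axis), without a covariate (filled circles; black where the adjusted p was under 0.05, gray otherwise) and with the mean 3' to 5' array control difference as a covariate (open diamonds). Bars are standard errors; the 10 called probe sets stay on their side of 0, and the median standard error is 0.18 without and 0.40 with the covariate.

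Samples of the same genotype were not in one order for all 10 genes. On the brightest probe sets, dnBrg1 replicate 1 was the lowest dnBrg1 sample for 6 of the 10 genes and the highest for 0, and dnBrg1 replicates 2 and 3 were the highest for 5 each. Among wild type samples replicate 1 was highest for 4 genes, replicates 2 and 3 for 3 each, and replicate 3 was lowest for 4. The median SD of the 10 genes was 0.26 in dnBrg1 and 0.27 in wild type lenses, against 0.15 and 0.23 over all probe sets. After each gene was centred within genotype, 23 of the 45 pairs of genes had a Pearson r above 0 over the 8 samples, with a median of 0.06 and a range of -0.69 to 0.96. These are descriptions, since the points of each pair come from the same arrays. The pairs with the highest r were Emcn with Tie1 (0.96), Esam with Tie1 (0.94) and Kdr with Pecam1 (0.93). Among 6990 genes with bright probe sets, those with a pattern most like the mean of the 10 were Cd93 (r = 0.93), Rpl41 (0.93), Rapgef1 (0.91), Adgrl4 (0.91) and Rspo1 (0.90), over the same 8 centred samples. They were picked as the highest r of the 6990, and how high the top r would run for unrelated genes was not tested.

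Genes of the VEGF and angiopoietin pathway changed in both directions. Of 21 measured genes on their brightest probe sets, 4 rose and 7 fell, against 17.5% higher, 23.3% lower and 40.7% in either direction among all 12393 genes. The list's median log2 fold change was -0.19 and that of all genes was -0.11. Among ligands, Vegfb, a ligand of Flt1, was at 8.99, 8.86, 8.84 and 8.91 in dnBrg1 lenses, against 10.18, 10.14, 10.01 and 10.34 in wild type lenses. The samples of each genotype lay close together and far from the other genotype. Vegfb fell by 1.27 ± 0.10 on the log2 scale (adjusted p = 3e-05), a call that held in every alternative run for it, with the control covariate too (-1.08, adjusted p = 0.034). Pgf, placental growth factor and likewise a ligand of Flt1, was at 8.43 ± 0.17 in dnBrg1 and 7.76 ± 0.29 in wild type lenses (SD, n = 4 each) and rose (0.66 ± 0.16, adjusted p = 0.009). Vegfa, the main ligand of Kdr, had a log2 fold change of -0.31 ± 0.13 and did not pass (adjusted p = 0.082), except without dnBrg1 replicate 2 (range over the alternatives 0.038 to 0.94), and its dimmer probe set was on the other side of 0 (0.38). Of the angiopoietin genes, Angpt2 was at -0.53 (adjusted p = 0.064; called lower without wild type replicate 1 or 3, range over the alternatives 0.037 to 0.44; 0.48 with the control covariate) and Angpt1 was called higher (0.56, adjusted p = 0.041; called without wild type replicate 3 and lost without any other 1 sample; over the alternatives 0.0027 to 0.87). Among signaling genes, Mapkapk2, a kinase downstream of p38, rose (1.28 ± 0.18), and Nos3, the endothelial nitric oxide synthase, was called lower (-0.96 ± 0.26, adjusted p = 0.016). The Nos3 samples overlapped, and its change was 0.10 with the control covariate. Its call was also lost with dnBrg1 replicates 3 and 4 only and in the methods' t-test after Benjamini-Hochberg. The means of Nos3 (6.95), Mapkapk2 (7.53) and Angpt1 (4.88) lay below the median of all probe sets. The small heat shock protein gene Hspb1 was called lower (-1.26 ± 0.44, adjusted p = 0.045) and lost the call without any 1 of replicates 2, 3 and 4 of either genotype. With the control covariate only Vegfb among these 21 was called.

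Of 38 further endothelial genes 10 rose and 12 fell, against 17.5% higher, 23.3% lower and 40.7% in either direction among all genes. The list median was -0.07 and that of all genes was -0.11. Called genes with dimmer probe sets of opposite sign were Eng (0.73, dimmer -0.85), Aplnr (-0.99, dimmer 1.05) and Dll4 (-0.65, dimmer 0.77). Ets1 (-0.36, dimmer 2.46, 0.73 and -0.26) and Jam2 (-0.57, dimmer 0.65, 0.45 and -0.85) had dimmer probe sets of both signs. Those of Adgrl4, Notch4, Clec14a, Gata2 and Calcrl kept the sign. Among transcription factor genes, Tal1 (-1.51 ± 0.21, adjusted p = 0.0004) and the ETS factor gene Fli1 (-1.33 ± 0.12, adjusted p = 4.7e-05) fell, and Sox18, a relative of Sox17, rose (1.16 ± 0.21, adjusted p = 0.002). Sox18 was at 7.35, 7.70, 7.74 and 7.32 in dnBrg1 lenses, against 6.26, 7.0, 6.14 and 6.06 in wild type lenses, so that Sox17 and Sox18 went in opposite directions in the same samples. Fli1 (-1.56) and Sox18 (2.04) kept their calls with the control covariate (adjusted p = 0.021 and 0.033). A dimmer Fli1 probe set was at 0.05 (adjusted p = 0.90). The water channel gene Aqp1, of endothelial cells and erythrocytes among others, rose (1.35 ± 0.26, adjusted p = 0.0027).

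**Figure D3:**
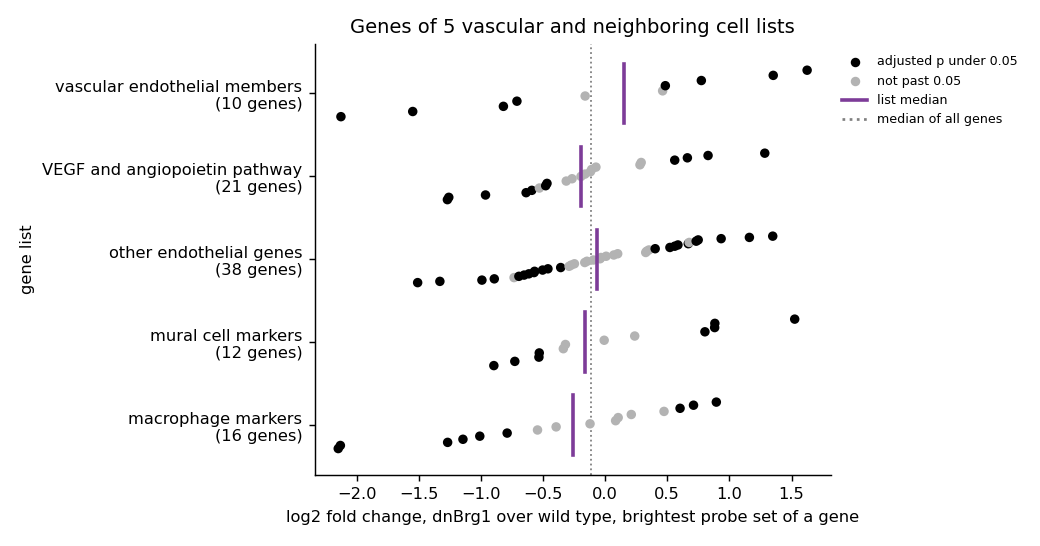
Log2 fold change, dnBrg1 over wild type, of the brightest probe set of each gene (horizontal axis) in 5 gene lists (vertical axis). Black points had an adjusted p under 0.05 and gray points did not, purple bars are list medians, and the dotted line is the median of all genes (-0.11); every list has called genes on both sides of 0.

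Markers of cells that accompany the lens vessels, and of other tissues, were read in the same samples. The counts of calls below stand beside 40.7% called over all genes (17.5% higher, 23.3% lower). The summed linear intensity of the 10 genes was between 4401 and 5172 in dnBrg1 and between 5376 and 6002 in wild type lenses, and that of the 38 further endothelial genes was 17164 to 20295 in dnBrg1 and 21716 to 22797 in wild type lenses. These sums are led by the genes with the brightest probe sets. For 12 mural cell markers the sum was 6970 to 8568 in dnBrg1 and 8830 to 10742 in wild type lenses, with 4 genes called higher and 4 lower. The list median was -0.16. Pdgfrb, the pericyte PDGF receptor gene (1.53, and 1.54 with its other probe set), Kcnj8, Mcam (0.88 each) and Tagln (0.80) rose. The Kcnj8 samples overlapped, and its call held in 14 of 22 alternatives. It was lost without wild type replicate 4 and without any of dnBrg1 replicates 2, 3 and 4. The proteoglycan gene Cspg4 (-0.90, and -0.05 with its dimmer probe set), Abcc9 (-0.73, but 0.77 with the control covariate), Rgs5 and Notch3 (-0.53 each) fell. The dimmer Rgs5 probe sets were at 0.27, -0.87 and 0.59, and the dimmer Notch3 probe set was at 0.10. For 16 macrophage markers, which include those of the hyaloid macrophages that take part in vessel regression, the sum was 4527 to 8659 in dnBrg1 and 12432 to 14765 in wild type lenses. Of these markers 3 rose and 6 fell, and the list median was -0.26. The complement gene C1qb (-2.15 ± 0.24) and Csf1r (-2.13 ± 0.19), the receptor gene for colony-stimulating factor, fell most, while Lyz2 (0.90), Cx3cr1 (0.71) and Fcgr3 (0.60) were called higher. Dimmer probe sets were at -1.83 and -1.12 for C1qb, -2.03 and -0.32 for Csf1r, and 0.07 for Cx3cr1. Laptm5, counted as lower (-1.27), had dimmer probe sets at 1.26 and 0.10, the first called higher (limma adjusted p = 0.0022). The other C1q genes did not pass (C1qa 0.21, C1qc -0.12). The count of higher macrophage markers was 1 without dnBrg1 replicate 3 or wild type replicate 1 and 0 without wild type replicate 4. With the control covariate C1qb alone was called (-2.51). Of 8 erythroid markers 0 were called by limma (0 at an unadjusted p under 0.05, 0 in the methods' t-test after Benjamini-Hochberg), and the sums overlapped (2936 to 14246 in dnBrg1, 5636 to 9542 in wild type). The highest erythroid sum was that of dnBrg1 replicate 3. Among dnBrg1 samples this replicate was highest for 5 of the 10 endothelial genes and lowest for 1. Of 7 platelet markers 1 was called lower (Itga2b, -0.50; 0 without any 1 of dnBrg1 replicates 1, 2 and 3 and wild type replicates 2 and 4, and 0 in the methods' t-test after Benjamini-Hochberg), and the sums were 446 to 1064 in dnBrg1 and 763 to 1109 in wild type lenses. Of 9 mesenchyme markers 0 were called (3 at an unadjusted p under 0.05, 0 in the methods' t-test after Benjamini-Hochberg), with sums of 4513 to 13045 in dnBrg1 and 5395 to 8164 in wild type lenses. The mesenchyme count was 3 higher without dnBrg1 replicate 2 and 1 lower without wild type replicate 4, and 1 erythroid marker was lower without dnBrg1 replicate 3. Among 6 retina markers 4 fell (3 to 5 with 1 sample left out, 3 in the methods' t-test after Benjamini-Hochberg and 0 with the control covariate). Of 6 pigment cell markers 2 were called lower (1 without any 1 of dnBrg1 replicates 1 and 3 and wild type replicates 1, 2 and 4). Of 8 skeletal muscle markers 2 were called higher (0 with dnBrg1 replicate 2 left out, 4 with replicate 1, 5 with replicate 3 and 1 with replicate 4 left out, and 1 when any of wild type replicates 1, 2 and 4 was left out). Of 10 lens markers, with a median log2 intensity of 13.6, 3 rose and 0 fell, and of 15 genes of liver, pancreas and testis 1 rose and 2 fell (1 without dnBrg1 replicate 1 or 4). Sums without overlap were not limited to vessel-associated lists. They were lower in dnBrg1 for the retina list (4405 to 5563, against 8173 to 10687 in wild type). The VEGF and angiopoietin list was lower too (12025 to 12462, against 14764 to 16007). They were higher in dnBrg1 for the lens list (116970 to 127394, against 106797 to 115580). The liver, pancreas and testis list was higher too (3767 to 5447, against 1770 to 2571). That sum was led by 1 gene, Cela1, which rose (1.64) and had a mean log2 intensity of 11.28. The median mean intensity of the list was 4.78 and its median log2 fold change was -0.12. The part of the cells marked by these lists in the values of the endothelial genes was not tested.

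**Figure D4:**
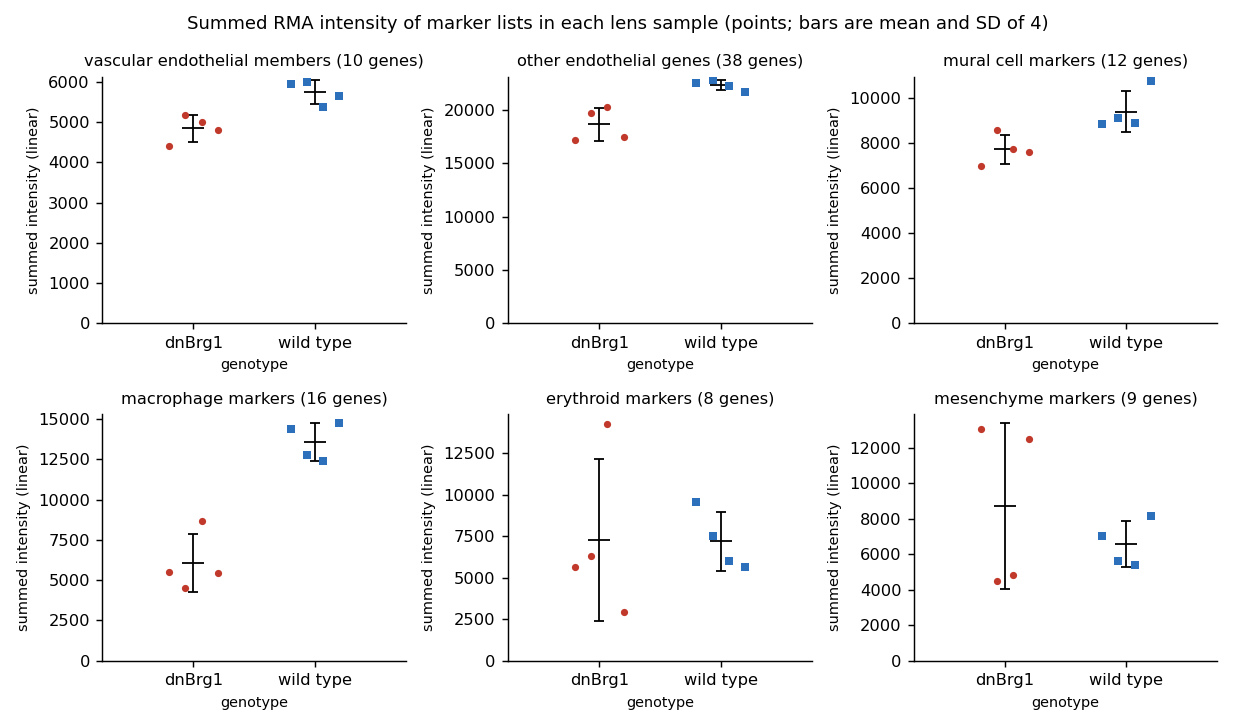
Summed linear RMA intensity (vertical axes, starting at 0) of 6 marker lists, 1 brightest probe set per gene, in each dnBrg1 (red circles, left) and wild type (blue squares, right) sample; bars mark mean and SD of the 4 values. The genotypes do not overlap for the endothelial, mural cell and macrophage lists, while the erythroid and mesenchyme lists spread most among dnBrg1 samples. Of the lists not drawn, the genotypes also do not overlap for the VEGF and angiopoietin, retina, lens, and liver, pancreas and testis lists.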

How the data were processed

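Lens samples of dnBrg1 (4) and wild type (4) embryos were measured on 1 Affymetrix mouse expression array each, after amplification and biotin labeling of the RNA with NuGEN kits. The authors deposited linear RMA intensity values (background corrected, quantile normalized and summarized per probe set; RMA version not given in the sources used here). The deposited intensity values were converted to log2. Their median per array was between 196.9 and 208.96, and the range of all values was 3.64 to 28468.2. Of 22690 probe sets 64 were controls, and 22626 were tested: 20380 name 1 gene in the platform annotation, 691 several and 1555 none. Symbols were updated through Entrez identifiers, which changed 0.

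Groups follow the sample titles. dnBrg1 was compared with wild type with limma 3.58.1 (R 4.3.3; lmFit and eBayes, no covariate), with Benjamini-Hochberg adjustment over all tested probe sets and a threshold of 0.05. The methods' SAM was not run here. The limma step was checked on simulated data. Replicates are described as biological, from distinct lenses, and how many embryos or litters stand behind a sample is not stated in the labels. Scan dates were not used here, so no batch could be tested. A gene is represented by the probe set with the highest mean, and "bright" means at or above the median probe set mean (7.69 log2). The array controls are the probe sets for the 3' and 5' parts of Gapdh and β-actin, compared by an exact permutation test. List genes named in the text are up to 4 called genes of largest change per list. The ligands, receptors, second probe sets and other list genes beside them were picked after their values were seen. Marker lists and members were chosen with earlier results of these data known. Alternatives changed the scaling, filter, variance model, replicate block, samples, covariate, threshold, test and probe set summary. Sequences are from RefSeq (GRCm38.p6).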

Additional observations from a re-analysis of the deposited data

Results flagged for a closer look

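Among 58 sets of 4 samples of 1 genotype (each endothelial probe set, each summed marker list and each 3' to 5' control difference), 3 held a sample whose gap to its neighbor was over Dixon's critical share of the whole range for 4 samples. Chance flags about 1 in 20 such sets. Plvap was at 8.50 in dnBrg1 replicate 3, above the other dnBrg1 samples by 0.894 of the range, and its decrease kept its call without that sample. The summed intensity of the mural cell markers was 10742 in wild type replicate 4, above the other wild type samples by 0.848 of the range. The summed intensity of the liver, pancreas and testis genes was 3767 in dnBrg1 replicate 1, below the other dnBrg1 samples by 0.877 of the range. Cela1, the brightest gene of that list, was at 11.66 in this sample, against 12.27, 12.20 and 12.25 in dnBrg1 replicates 2 to 4.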

How the results depend on the processing

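The 10 endothelial calls gave 217 comparisons with alternatives, of which 193 kept the direction and the call, 24 kept the direction without the call and 0 reversed. Of 5 higher and 5 lower endothelial probe sets, 0 and 0 remained called with the control covariate, and the count of higher ones was 3 with bright probe sets only, 2 with dnBrg1 replicates 1 and 2 only and 3 with replicates 3 and 4 only. Leaving out 1 sample gave 4 to 6 higher and 5 to 6 lower. Of all probe sets, 4484 were called higher and 4745 lower, against 808 and 634 with the control covariate. Lower calls were 2600 with dnBrg1 replicates 1 and 2, 2825 with replicates 3 and 4 and 2820 at an adjusted p under 0.01, and leaving out 1 sample gave 3924 to 4978 higher and 3776 to 5194 lower.

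In the VEGF and angiopoietin list (4 higher, 7 lower), higher calls were 2 with bright probe sets, 2 with dnBrg1 replicates 1 and 2 and 0 with the covariate. Lower calls there were 4 with dnBrg1 replicates 1 and 2, 1 with the covariate, 4 by the methods' t-test after Benjamini-Hochberg, 4 at an adjusted p under 0.01 and 4 with a gene's probe sets averaged (3 to 4 and 5 to 7 leaving out 1 sample). Among the further endothelial genes (10 higher, 12 lower), higher calls were 3 with bright probe sets, 5 with dnBrg1 replicates 1 and 2, 6 with replicates 3 and 4, 1 with the covariate and 6 at an adjusted p under 0.01, and lower calls were 7 with replicates 3 and 4, 2 with the covariate and 6 with probe sets averaged (7 to 10 and 8 to 14 leaving out 1 sample). The control difference was -1.13 to -0.67 for Gapdh and -2.14 to -1.77 for β-actin when 1 sample was left out (two-sided exact permutation p = 0.057 for Gapdh without any 1 dnBrg1 sample, and 0.029 in the other cases).

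The dimmer Cdh5 probe set, near 0, changed sign with repeated quantile normalization (0.052), array weights (0.039), dnBrg1 replicates 1 and 2 only (0.19), the covariate (0.84) and, in an alternative chosen after seeing the data, without wild type replicates 2 and 3 (0.19), and it was between -0.12 and 0.19 when 1 sample was left out. The covariate also reversed the dimmer Sox17 probe set (0.99), Pecam1 (-0.87), Tek (0.38) and Angpt2 (0.48), which were not called, and 6 of the 73 called list genes: Nos3 (0.10), Notch4 (0.31), Jam2 (0.45), Flt4 (0.20), Abcc9 (0.77) and the retina gene Crx (0.088). The cause of these changes was not tested. With the replicate number as a block, 4 endothelial probe sets were higher and 5 lower, the third Flt1 probe set losing its call (adjusted p = 0.053). Same-numbered samples did not deviate together (r of -0.19 to 0.16, 1 of 4 above 0.1).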
